A study of Mus musculus with 6 samples.

Results

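The 1832 regions described here are intergenic sites where transcription started in both directions away from a common centre, the layout that CAGE shows at many enhancers. CAGE (cap analysis of gene expression) sequences the capped 5′ ends of RNA, so that each tag marks 1 position and strand at which an RNA began. The members were chosen on tags pooled over all 6 libraries of the series: positions with 5 or more pooled tags were joined up to 20 bp on a strand, and a minus-strand cluster was paired with a plus-strand cluster lying 0 to 400 bp to its right. A pair was kept when both clusters lay outside every GENCODE gene and over 2 kb from every annotated 5′ end, and when the strand with more pooled tags had less than 4 times the tags of the other. The series held 322037 clusters and 28062 such divergent pairs, of which 3108 passed the limits on position and 1832 (58.9% of these) also passed the limit on the strand ratio. The rule therefore bounded the pooled level of each member from below, and it limited the strand ratio, the gap and the distance from genes. It did not use the contrast between the cell types.

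Active enhancers are commonly transcribed from both edges of the stretch of open DNA where transcription factors bind. The products, enhancer RNAs, are short, mostly unspliced and quickly degraded by the nuclear exosome, so they are scarce and are captured better in nuclear than in whole-cell RNA. Enhancers differ between cell types far more than the promoters of broadly used genes do, and an enhancer often acts on a gene that is not its nearest neighbour.

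Nuclear RNA was measured in R08 mESCs, a mouse embryonic stem cell line grown without feeder cells in medium with serum and LIF, and in oli-neu mOPCs, a neural cell line derived from mouse oligodendrocyte progenitors and grown with T3, thyroxine, bFGF and PDGF-BB. Each cell type was represented by 3 libraries of untreated cells from that 1 line, and the comparison asked which intergenic starts each line used. The library tag in the deposited positions differed between the cell types, so that cell type and library preparation cannot be told apart. The labels do not say whether the 3 libraries came from separate cultures, so p-values measure the spread between these libraries only. The mESC libraries held 16657021 to 37888141 tags (72972385 in all) and the mOPC libraries 21925299 to 40928704 (91692553 in all). The 5 stem cell markers summed to 2801 to 3201 CPM (counts scaled to a common library size after normalisation) in mESCs and to at most 0.463 in mOPCs, and the 5 oligodendrocyte progenitor markers to 2089 to 2239 in mOPCs and to at most 10.4 in mESCs. Among the latter, Pdgfra, the PDGF receptor that defines these progenitors in tissue, stayed at 11.1 to 12.1 in mOPCs. Markers of other cell types moved with the cell type too: the 4 primitive endoderm markers summed to 31.3 to 35.9 in mESCs and to at most 0.306 in mOPCs, with Sox17 and Sox7 at 0 in all mOPC libraries, and the 4 neuronal markers summed to 105 to 135 in mOPCs and to 13.6 to 15.0 in mESCs, of which 1 of 4, the synaptic calcium sensor Syt1, was higher in mOPCs. The 4 astrocyte markers summed to 55.9 to 59.8 in mESCs and 82.9 to 104 in mOPCs (1 of 4 higher in mOPCs, Slc1a3, while Aldh1l1 was lower) with Aqp4 at 0 in all mOPC libraries, the 4 fibroblast markers to 1.99 to 2.29 and 8.21 to 11.6, nearly all from Col1a1, with Col1a2 at 0 in all mOPC libraries, and the 4 microglia markers to 44.3 to 46.5 and 32.6 to 39.8, nearly all from Cx3cr1. Their part in the results below was not tested.

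Sequence could be read for the members that lie in promoter windows of RefSeq (assembly GRCm38.p6, the same coordinates as mm10), which run from 250 bases before to 50 bases after a gene start. Of the 1832 members 39 overlapped such a window and 21 lay wholly inside one, 19 of them at the start of a RefSeq lncRNA gene. By the rule all 21 lie outside GENCODE genes, so 1 annotation calls them intergenic and another places them at a gene start. Over all members 363 (19.8%) overlapped a RefSeq gene. Of the members named below, these included those near Pmepa1, Zfp93, Akna, Grhl2, Tnrc18, Adgrb1, Etv4, Epcam and Rffl. Among the 21 members wholly inside a window 8 had 50 or more pooled tags. Of these 8, 7 are printed to show how a divergent pair looks in the genome. They are named by the nearest protein-coding gene and shown on the plus strand with up to 20 bases on each side. The first run of capitals is the cluster of minus-strand starts, which runs leftward, and the second run is the cluster of plus-strand starts, which runs rightward.
Inhbb, right pair, chr1:119444108-119444263: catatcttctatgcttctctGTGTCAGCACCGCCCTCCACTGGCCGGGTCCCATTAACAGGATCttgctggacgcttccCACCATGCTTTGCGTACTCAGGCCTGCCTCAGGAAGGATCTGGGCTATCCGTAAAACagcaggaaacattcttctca
Inhbb, left pair, chr1:119443722-119443876: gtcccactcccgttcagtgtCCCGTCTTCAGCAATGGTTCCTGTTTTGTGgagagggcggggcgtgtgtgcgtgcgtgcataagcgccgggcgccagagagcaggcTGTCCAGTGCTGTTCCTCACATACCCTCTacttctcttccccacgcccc
Scaf11, chr15:96507177-96507345: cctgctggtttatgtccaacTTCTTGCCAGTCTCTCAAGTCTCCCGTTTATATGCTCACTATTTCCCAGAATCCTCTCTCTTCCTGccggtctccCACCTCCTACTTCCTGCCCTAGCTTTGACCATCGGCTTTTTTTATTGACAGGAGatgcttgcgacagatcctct
Epb41l1, chr2:156401371-156401493: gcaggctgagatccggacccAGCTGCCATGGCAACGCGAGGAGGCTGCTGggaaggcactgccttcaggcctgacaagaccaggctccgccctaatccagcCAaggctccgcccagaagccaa
Arhgef4, chr1:34666517-34666684: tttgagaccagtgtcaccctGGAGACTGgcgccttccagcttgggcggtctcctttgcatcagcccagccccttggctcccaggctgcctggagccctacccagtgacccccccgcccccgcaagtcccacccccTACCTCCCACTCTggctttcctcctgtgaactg
Pla2g10, chr16:13754433-13754556: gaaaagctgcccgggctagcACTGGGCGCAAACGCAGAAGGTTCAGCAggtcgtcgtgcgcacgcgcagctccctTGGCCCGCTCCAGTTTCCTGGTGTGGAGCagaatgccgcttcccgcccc
Arid1b, chr17:4908139-4908275: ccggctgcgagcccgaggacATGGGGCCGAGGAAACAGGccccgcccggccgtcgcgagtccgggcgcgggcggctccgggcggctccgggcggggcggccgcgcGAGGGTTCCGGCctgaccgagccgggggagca
Both Inhbb pairs were used in mESCs, the Scaf11, Epb41l1 and Arhgef4 pairs mainly in mOPCs, and the Pla2g10 and Arid1b pairs in both. Between the capitals lie 15 bases in the right Inhbb pair and 107 in the Arhgef4 pair.

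At the deposited leading position, the position with most tags on a strand, 38 of the 42 member starts in these windows had a C or T (90.5%), and the base just downstream was an A or G in 40 of 42 (95.2%). RNA polymerase II prefers to start at a purine that follows a pyrimidine. At 6261 leading starts with 500 or more tags in all RefSeq promoter windows the same shares were 93.0% and 95.7%, on the strand of each gene. The deposited positions thus lay 1 base before the purine of that step in members and in gene promoters alike, which moves no cluster by more than 1 base, and the cause was not tested. The RefSeq windows around the 21 members, 20 distinct windows since the 2 pairs near Arid1b share 1, had a median of 56.3% G and C against 52.7% over all 32815 windows. On either strand of the 300 bases, CCACCC, the core letters of KLF sites, stood in 12 of 20 (60%, 31.5% of all windows), ACAAAG (SOX) in 9 (45%, 18.7%), CAGCTG (E-box) in 4 (20%, 16.3%), GGAATG (TEAD) in 3 (15%, 14.7%), the TATA box letters TATAAA in 2 (10%, 13.6%) and AACAAT (SOX) in 1 (5%, 10.7%). The polyadenylation signal AATAAA, which can share letters with TATAAA, stood in 4 (20%, 19.6%) and the 5′ splice letters GGTAAG in 3 (15%, 9.68%). ATGCAAAT (POU), TCAAGGTCA (ESRRB), TGACTCA (AP-1), CCGGAAGT (ETS) and the palindrome of NFI stood in none of the 20 and in 1.74%, 0.424%, 5.20%, 3.89% and 0.0366% of all windows. With 20 windows picked for having tags these letters describe the windows and carry no test.

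Most members were weakly transcribed, with a median of 22 pooled tags (lowest 10, highest 3050), 236 members at 100 tags or more and 22 at 1000 or more. The rule set the lowest value but no upper limit. The 184 members at the top gave 64.9% of the 137278 member tags. The leading starts of the strands lay a median of 109 bp apart, with quartiles of 69 and 160 bp. Spacings of 50 to 99 bp were held by 538 members (29.4%) and of 100 to 149 bp by 506 (27.6%). In 849 members (46.3%) both clusters were a single position, whereas over the 121 members with 200 or more tags a cluster spanned a median of 51 bp and its leading position held a median of 23.1% of its tags. Around the middle of the pairs the plus strand peaked 55 bp to the right in mESCs and 75 bp to the right in mOPCs, and the minus strand 55 bp to the left in mOPCs. In mESCs the minus strand had a broad maximum 45 to 85 bp to the left (101 CPM at 75 bp) and a narrow spike of 106 CPM at 155 bp, with 79.4 and 51.6 CPM in the bins beside it. The middles lay a median of 22332.5 bp from the nearest 5′ end of a protein-coding gene. The limits left members on both sides of them: the highest strand ratio kept was 3.96 and the lowest refused 4.0, the closest member stood 2001 bp and the closest refused pair 1997 bp from an annotated 5′ end, the widest gap was 398 bp, and 548 members had just 5 tags on their weaker strand.

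**Figure D1:**
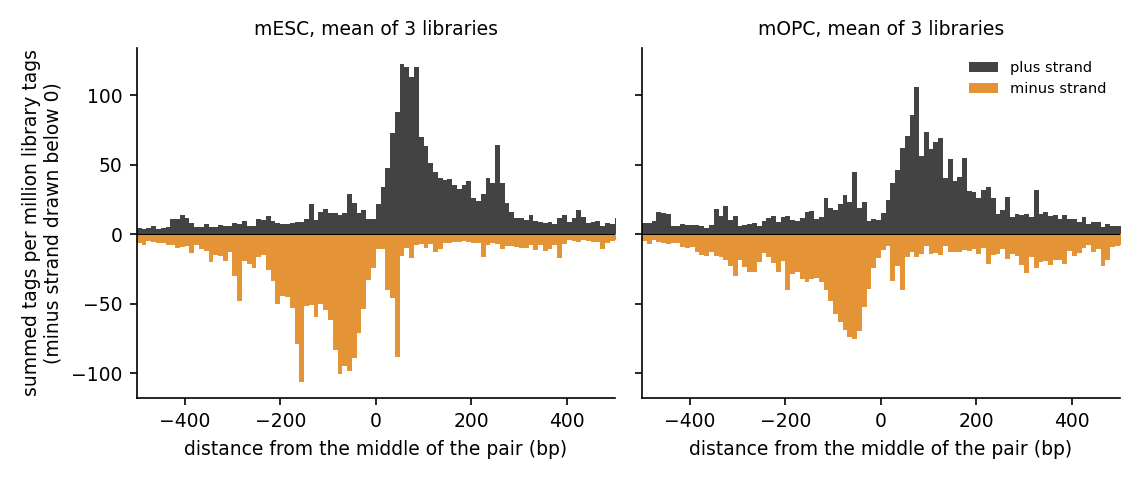
Tags around the middle of the 1832 members, in 10 bp bins. The horizontal axis is the distance from the middle of the pair in bp and the vertical axis the CPM (of library tags) summed over members, as the mean of the 3 libraries of a cell type, with the minus strand drawn below 0. Plus-strand tags peaked at 55 bp in mESCs and 75 bp in mOPCs, and minus-strand tags at -55 bp in mOPCs and, in mESCs, in a broad maximum around -75 bp with a narrow spike at -155 bp, an arrangement that the selection itself imposes.

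Pooling 6 libraries could join starts of different cell types, so the strands were read within each cell type. Bulk libraries cannot show whether both strands start in the same cells. Tags on both strands were found in 1284 members in mESCs (70.1%) and in 832 in mOPCs (45.4%), and in 1815 (99.1%) in at least 1 of the cell types. The strand ratio was also under 4 within at least 1 cell type in 1773 members (96.8%), and both strands had a tag in the same library in 1808 (98.7%). In 17 members each strand came from a different cell type, and 59 met the ratio limit in neither cell type.

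Most members were used in 1 of the lines and were silent, at this depth, in the other. Of the 1832 members, 831 (45.4%) had 0 tags in the mOPC libraries and 389 (21.2%) had 0 tags in the mESC libraries, while 612 (33.4%) had tags in both cell types. Tags in all 3 mESC libraries and none in mOPCs were found for 790 members, the opposite for 375, and tags in all 6 libraries for 254 (13.9%). A member needed 10 pooled tags, so 1 at 0 in a cell type had to have them all in the other; the median was 20 tags in both of these sets. A count of 0 allows up to 0.0295 CPM in the pooled mOPC libraries and 0.0461 CPM in the pooled mESC libraries, counting error only. With that limit the 831 members stood at a median of at least 10.4-fold higher in mESCs and the 389 at least 4.27-fold higher in mOPCs. After every library was thinned to 16657021 tags, 874 members (47.7%) were at 0 in mOPCs and 413 (22.5%) in mESCs.

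**Figure D2:**
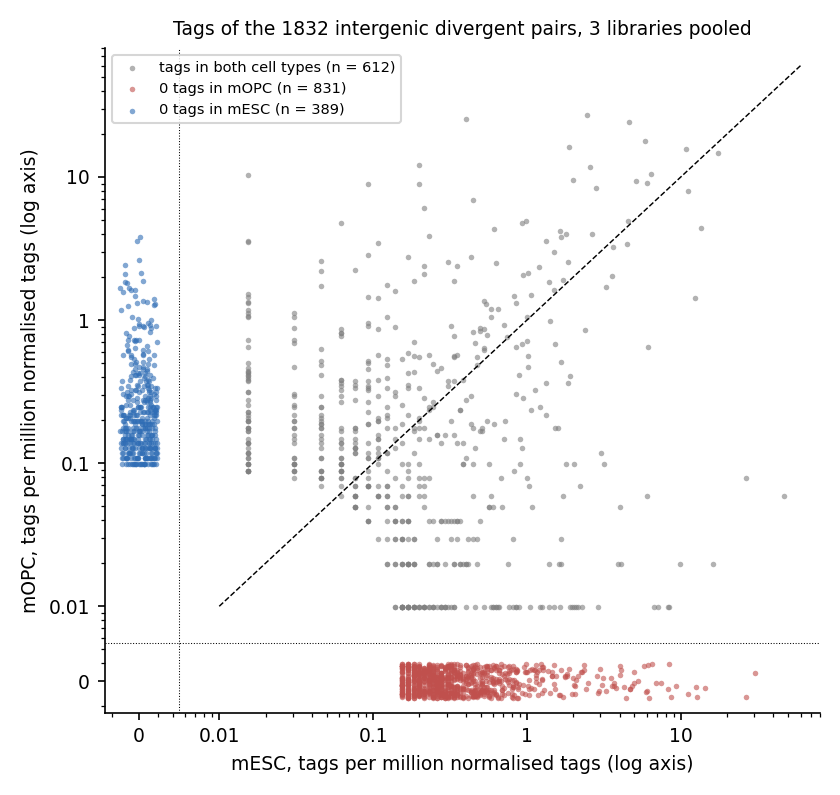
Level of each member in mESCs (horizontal) and mOPCs (vertical), in CPM (normalised tags) over the 3 pooled libraries, on log axes with members at 0 tags set in a strip beyond the dotted lines and spread there at random. The 831 members with 0 mOPC tags lie along the bottom, the 389 with 0 mESC tags along the left, and the 612 with tags in both spread on both sides of the dashed line of equal levels.

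The members took a larger share of the mESC libraries. The share of library tags in members was 0.0971, 0.0974 and 0.100% in mESCs and 0.0766, 0.0733 and 0.0681% in mOPCs, so the groups did not overlap. The mean share was 0.0982% ± 0.00173 (SD, n = 3) in mESCs and 0.0727% ± 0.00431 (SD, n = 3) in mOPCs, 1.35 times higher (two-sided exact permutation p = 0.1, the smallest that 3 libraries against 3 allow). Each mESC library had tags in 1402, 1269 and 1311 members, and each mOPC library in 884, 906 and 931. In such bulk samples fewer cells that use a start and less RNA in each cell cannot be told apart. In the thinned libraries the means over the same members were 1293 ± 22.2 and 837 ± 13.5 (SD, n = 3 each). The members were chosen on the pooled unthinned tags of these libraries, 831 of them with mESC tags alone and 389 with mOPC tags alone. These shares and numbers therefore describe the selected set, and thinning gives no separate support.

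Like intergenic starts of a single strand, and unlike most promoters, members tended to take nearly all their tags from 1 line. More than 95% of the normalised tags came from mESCs in 911 members (49.7%) and from mOPCs in 431 (23.5%), which left 490 (26.7%) between. Of 12861 intergenic clusters with 10 or more tags and no partner strand 43.7% lay beyond 95% for mESCs, 35.7% for mOPCs and 20.5% between. Among divergent pairs within 500 bp of annotated 5′ ends with 50 or more and under 200 tags 71.6% lay between, against 32.8% of the 302 members and 21.4% of the unpaired intergenic clusters at those levels. At 200 or more tags 51 of 121 members (42.1%) lay between, against 23.5% of unpaired intergenic clusters and 84.1% of pairs at 5′ ends, so that strong members were one-sided less often than strong unpaired clusters. These shares describe pooled tags, and the difference between the classes was not tested.

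**Figure D3:**
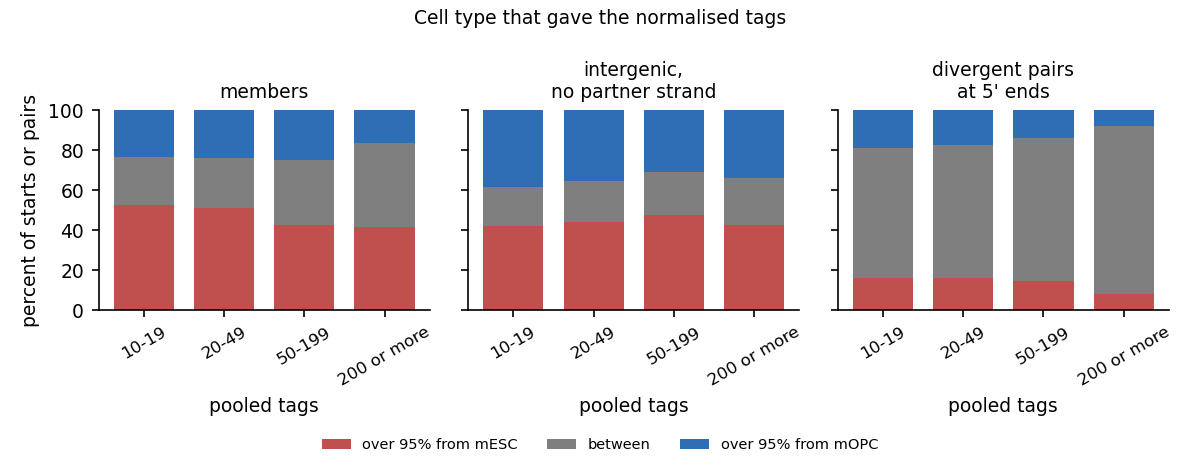
Percent of members, of intergenic clusters with no partner strand and of divergent pairs at annotated 5′ ends (vertical) whose normalised tags came to more than 95% from mESCs, to more than 95% from mOPCs or lay between, by pooled tags (horizontal). The middle band covers 23.6 to 42.1% of members, 19.8 to 23.5% of unpaired intergenic clusters and 64.8 to 84.1% of pairs at 5′ ends.

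Single members were tested with edgeR's quasi-likelihood test in a table of all clusters of the genome, in which 458 members passed the filter on low counts and 1374 did not. The filter did not follow pooled tags alone: the lowest tested member had 32 pooled tags and the highest untested member 73. The pair near Pard6b, with 24 tags in each cell type, was not tested, whereas the pair near Arhgef4, with 50 tags, all from mOPCs, was. At a Benjamini-Hochberg adjusted p under 0.05, 433 of the 458 were called, 254 higher in mESCs and 179 higher in mOPCs. This share describes the members that passed the filter, and whether the filter favoured members with uneven use was not tested. Of all 57393 clusters tested 91.2% were called, 43.9% higher in mESCs and 47.2% higher in mOPCs, so that a call by itself says little about a member between these lines. The median log2 fold change (mOPC over mESC, as throughout) of all tested clusters was 0.17, and 0.49 with library totals in place of TMM factors, and a member within that distance of 0 has no firm direction. Where both strands passed the filter on their own (173 members), both were called in 151, and in the same direction in 145 of these (85 higher in mESCs and 60 in mOPCs). With the member strands as separate rows, 52352 of all 57431 clusters tested were called, so a call on both strands says little by itself either. How often the strands of other divergent pairs were called in the same direction was not tested.

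Among members with 50 or more tags and groups that did not overlap, the 8 with the largest fitted change toward mESCs had 0 tags in every mOPC library. The pair 14.7 kb from Pmepa1, a brake on TGF-β signalling (chr2:173291111-173291261), had 1031, 422 and 510 tags in the mESC libraries. This was at least 1021-fold higher than in mOPCs, from a limit of 3 tags over the pooled mOPC libraries (edgeR adjusted p = 1.59e-290). The pair 9.76 kb from Ccin, which encodes the sperm head protein calicin (chr4:43993188-43993337), had 880, 379 and 473 tags, at least 901-fold higher. Both had no mOPC tag at all, while Pmepa1 itself had a log2 fold change of -0.74 ± 0.11 (SE) and Ccin, with at most 7 tags in a library, was not tested.

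The other 6 were weaker and equally one-sided. The pair 11.6 kb from the domesticated transposase gene Pgbd5 (chr8:124363448-124363578) had 422, 225 and 284 mESC tags, at least 484-fold higher. The pair 32.2 kb from Lmnb1, the gene of lamin B1 (chr18:56675516-56675706), had 432, 185 and 212, at least 431-fold higher. The pair 2.99 kb from Tmem39a (chr16:38555633-38555814) had 393, 183 and 247, at least 428-fold higher. Close behind stood the pairs near Cyb561, an electron carrier of secretory vesicles, near the Golgi protein gene Golm1 and near the zinc finger gene Zfp93. The pair at Cyb561 (chr11:105955870-105956028, 2.60 kb) had 359, 175 and 187 mESC tags, at least 375-fold higher. At Golm1 (chr13:59679364-59679562, 3.67 kb) there were 324, 143 and 143, at least 317-fold higher. At Zfp93 (chr7:24280143-24280610, 8.80 kb) there were 279, 127 and 159, at least 294-fold higher. The nearest genes shared this direction only in part. Cyb561, Golm1 and Lmnb1 were lower in mOPCs, as their members were (log2 -3.77 ± 0.15, -2.64 ± 0.09 and -1.97 ± 0.11, SE). Pgbd5 and Zfp93 were higher in mOPCs (1.94 ± 0.10 and 1.40 ± 0.14, SE), and Tmem39a was not called (0.03 ± 0.08, SE, edgeR adjusted p = 0.705).

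The 8 members with the largest change toward mOPCs were weaker, and 7 of them had 0 tags in every mESC library. The pair 102 kb from Grhl2, an epithelial transcription factor gene (chr15:37131303-37131491), had 288, 311 and 457 tags in the mOPC libraries and 0, 1 and 0 in the mESC libraries. The ratio of the pooled levels was 677, with an exact 95% counting interval of 121 to 26746. Grhl2 itself, however, was lower in mOPCs (log2 -4.89 ± 0.17, SE, edgeR adjusted p = 1.57e-47). The pair 56.7 kb from Chd7 (chr4:8911805-8912032), a chromatin remodeller gene with known roles in oligodendrocyte development, had 94, 118 and 177 mOPC tags, at least 83.1-fold higher than in mESCs. Chd7 itself was higher in mOPCs (log2 2.05 ± 0.09, SE). The pair 6.08 kb from Akna (chr4:63409386-63409529) had 81, 124 and 158 mOPC tags, at least 77.5-fold higher, and Akna was higher too (log2 3.48 ± 0.22, SE).

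Further members used in mOPCs lay near secreted growth factors and a cytoskeletal gene. The pair 3.62 kb from Afap1l1, whose product binds actin filaments (chr18:61790241-61790362), had 74, 77 and 116 mOPC tags, at least 57.0-fold higher. The pair 17.3 kb from Wnt7b (chr15:85599746-85599852), a Wnt ligand gene, had 58, 70 and 119, at least 52.7-fold higher. The pair 41.1 kb from Egf, the gene of epidermal growth factor (chr3:129640310-129640524), had 68, 65 and 80, at least 45.5-fold higher. All 3 stood at 0 in each mESC library, and so did the remaining pairs. The pair 53.7 kb from Ccdc66 (chr14:27562068-27562237) had 67, 62 and 88 mOPC tags, at least 46.3-fold higher. The pair 7.07 kb from Fam240a (chr9:110909666-110909910) had 51, 70 and 66, at least 39.9-fold higher. Wnt7b and Egf were higher in mOPCs (log2 2.08 ± 0.20 and 3.23 ± 0.13, SE), whereas Afap1l1 was lower (-1.66 ± 0.15, SE). Ccdc66 was slightly lower, close to the threshold (-0.24 ± 0.12, SE, edgeR adjusted p = 0.0481). Fam240a, with at most 12 tags in a library, was not tested.

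The 5 members with most tags included 1 of mESCs, 3 of mOPCs and 1 of both. The pair 12.5 kb from Akap12, a scaffold of protein kinase A (chr10:4253716-4253945), had 1259, 881 and 904 tags in mESCs against 2, 1 and 3 in mOPCs, a log2 fold change of -9.62 ± 0.23 (SE). Akap12 itself was lower in mOPCs (log2 -3.93 ± 0.09, SE). The pair 5.01 kb from Cirbp, a cold-inducible RNA-binding protein gene (chr10:80160894-80161164), had 15, 4 and 7 tags in mESCs against 747, 712 and 1132 in mOPCs (5.99 ± 0.21, SE). The pair 4.10 kb from Tnrc18 (chr5:142821685-142821917) had 91, 30 and 39 against 686, 877 and 1178 (3.47 ± 0.15, SE), and the pair 28.5 kb from the adhesion receptor gene Adgrb1 (chr15:74487607-74487799) had 148, 66 and 84 against 559, 767 and 1140 (2.37 ± 0.14, SE). Cirbp, Tnrc18 and Adgrb1 were higher in mOPCs too (log2 2.36 ± 0.09, 1.73 ± 0.09 and 3.19 ± 0.09, SE). The groups of these 4 members did not overlap.

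Strong members that hardly differed were rarer. The pair 19.4 kb from Nsd1, a histone H3 lysine methyltransferase gene (chr13:55190278-55190500), had 530, 301 and 297 tags in mESCs and 373, 492 and 621 in mOPCs. Its log2 fold change of -0.28 ± 0.12 (SE, edgeR adjusted p = 0.0223) turned to 0.04 with library totals alone, so it has no firm direction. Near Scd2, a fatty acid desaturase gene (chr19:44266983-44267226), there were 154, 60 and 82 tags in mESCs and 123, 184 and 197 in mOPCs (0.14 ± 0.17, SE, adjusted p = 0.433). Near Nemf, a ribosome quality control gene (chr12:69364216-69364367), there were 114, 52 and 69 against 83, 119 and 129 (-0.16 ± 0.18, SE, adjusted p = 0.41). The pairs near Ptma (chr1:86504396-86504492; 57, 36 and 19 against 44, 59 and 90) and Zkscan3 (chr13:21408571-21408755; 35, 28 and 34 against 33, 58 and 73) changed by 0.12 ± 0.23 and 0.05 ± 0.24 (log2, SE). None of these last 4 passed the test, which does not show that they were equal. In 4 of these 5 the strands changed unequally while their sum hardly differed: Nsd1 had 34 minus and 1094 plus tags in mESCs against 591 and 895 in mOPCs, Ptma 25 and 87 against 172 and 21, Scd2 221 and 75 against 126 and 378, and Zkscan3 66 and 31 against 139 and 25. The interaction of strand and cell type passed the test in all 4 (edgeR adjusted p = 9.21e-49, 5.82e-20, 4.10e-19 and 0.0335). Such a call was common, made for 53 of the 100 tested members with 20 or more tags in each cell type (53.0%).

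Genes of the pluripotency network carried members that were used in mESCs. The list of 47 genes, with transcription factors, signalling genes and chromatin genes of the early embryo, had all 47 tested, 45 higher in mESCs and 1 higher in mOPCs, where 46.0% and 44.6% of all 18290 genes were called, and a median log2 fold change of -9.27 against -0.03 over all genes. The nearest protein-coding gene was on this list for 62 members at 22 genes. Of these 62, 45 had 0 tags in mOPCs (72.6%), 7 had 0 tags in mESCs (11.3%) and 10 had tags in both (16.1%), compared with 45.4, 21.2 and 33.4% of all members. The filter on low counts passed 11, with 7 called higher in mESCs, 3 higher in mOPCs and 1 not called. Of all clusters 43.9% and 47.2% were called each way, and of all tested members 55.5% and 39.1%. Among the 852 members nearest to any protein-coding gene called higher in mESCs, 525 had 0 tags in mOPCs. Another 81 had 0 tags in mESCs and 246 had tags in both, so a lean to mESCs was not particular to this list.

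Distal regions downstream of Sox2 and Klf4, reprogramming factor genes with known far enhancers in stem cells, each held several members. Sox2 had 6 members 101 to 145 kb away, with 66, 32 and 32 summed tags in the mESC libraries and 0 in each mOPC library, at least 67.6-fold higher. Sox2, a factor of neural progenitors as well, was itself lower in mOPCs (log2 -2.39 ± 0.14, SE). Klf4 had 5 members 16.6 to 57.2 kb away with 155, 65 and 63 tags in mESCs and 0 in mOPCs, at least 147-fold higher. The strongest of these lay at chr4:55475386-55475721 with 56, 31 and 32 tags. Klf5 (4 members; 81, 33 and 29 tags), Prdm14 (3 members; 46, 17 and 19), Jarid2 (5 members; 45, 14 and 21) and Klf2 (2 members; 48, 19 and 9) likewise had tags in every mESC library and 0 in every mOPC library. Prdm14 and Jarid2 act through chromatin, whereas the KLF genes encode zinc finger activators.

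Signalling genes of this list were mixed. Lefty2, an inhibitor of Nodal, had 3 members with 61, 27 and 26 tags in mESCs and 0, 0 and 1 in mOPCs, a ratio of 178 (exact 95% counting interval 31.3 to 7089). Socs3, the feedback inhibitor of LIF signalling, had 11 members, the most of any listed gene, with 163, 78 and 80 tags in mESCs and 52, 69 and 84 in mOPCs. Its strongest pair (chr11:117976434-117976581) had 102, 53 and 44 tags in mESCs and 0 in mOPCs, at least 104-fold higher, whereas its next (chr11:117963511-117963634) had 22, 10 and 16 against 19, 25 and 33 (log2 0.02 ± 0.33, SE). Members could thus lie side by side near 1 gene and differ in use. Members nearest to Id3, Nr5a2 and Epcam went against the direction of these genes. The 3 near Id3, a dominant negative helix-loop-helix gene, had 2, 0 and 0 tags in mESCs and 31, 31 and 58 in mOPCs, a ratio of 38.4 (10.4 to 321). The 1 nearest to the nuclear receptor gene Nr5a2, 241 kb away, had 0 in each mESC library and 13, 12 and 13 in mOPCs, at least 8.11-fold higher. The 1 near the epithelial adhesion gene Epcam (chr17:87613488-87613590) had 86, 37 and 49 against 104, 124 and 180. The change of this member was small (log2 0.59 ± 0.19, SE) and lost its call with no filter on low counts. The gene Id3 had 0 tags in each mOPC library, the gene Nr5a2 was lower in mOPCs (log2 -10.17 ± 0.18, SE), and the gene Epcam had 4147, 1562 and 1862 tags in mESCs and 1 in each mOPC library.

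**Figure D4:**
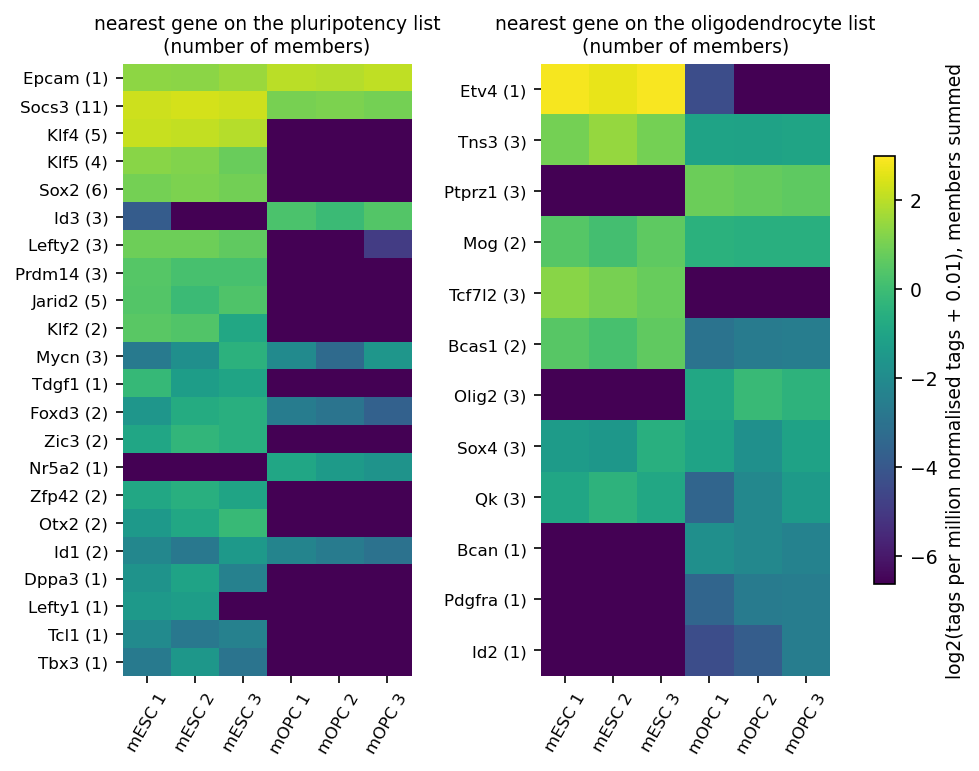
Summed level of the members nearest to each listed gene (rows, with the number of members) in each library (columns), as log2 of CPM plus 0.01, with the darkest colour at 0 tags. Members near Klf4, Klf5, Sox2, Prdm14, Jarid2 and Klf2 had tags in the mESC libraries alone, those near Ptprz1 and Olig2 in the mOPC libraries alone, and those near Tcf7l2 in mESCs alone.

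Members near genes of the oligodendrocyte lineage included starts of both lines. Of the 51 listed genes 50 were tested, 44 higher in mOPCs and 5 higher in mESCs, with a median log2 fold change of 3.87. The list was nearest to 26 members at 12 genes: 11 had 0 tags in mESCs (42.3%, 21.2% of all members), 7 had 0 tags in mOPCs (26.9%, 45.4% of all members) and 8 had tags in both (30.8%, 33.4% of all members). Of the 8 that passed the filter 3 were called higher in mOPCs, 4 higher in mESCs and 1 was not called. Of all clusters 47.2% and 43.9% were called these ways. Among the 672 members nearest to any protein-coding gene called higher in mOPCs, 235 had 0 tags in mESCs. Another 198 had 0 tags in mOPCs and 239 had tags in both. Ptprz1, a receptor phosphatase gene of progenitors, had 3 members 40.7 to 81.2 kb away with 45, 54 and 66 summed mOPC tags and 0 in each mESC library, at least 35.2-fold higher. Olig2, the transcription factor gene that specifies the lineage, had 3 members 4.70 to 34.1 kb away with 14, 30 and 32 mOPC tags and 0 in mESCs, at least 16.2-fold higher. Single members near Bcan (7, 7 and 8 mOPC tags) and Pdgfra (2, 5 and 7) also had 0 tags in each mESC library.

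Other members near lineage genes belonged to the stem cells. Etv4, an ETS factor gene downstream of FGF signalling, had 1 member 2.31 kb away (chr11:101787568-101787768) with 246, 95 and 123 tags in mESCs and 1, 0 and 0 in mOPCs, a ratio of the pooled levels of 724 (exact 95% counting interval 129 to 28669). Etv4 itself was not called (log2 -0.17 ± 0.09, SE, adjusted p = 0.0716). Tcf7l2, the Wnt pathway factor gene, had 3 members with 82, 30 and 28 tags in mESCs and 0 in mOPCs, and a pair 91.8 kb from the myelin gene Bcas1 (chr2:170257800-170258120) had 47, 17 and 26 against 0, 0 and 1, a ratio of 140 (24.6 to 5610). The genes Tcf7l2 and Bcas1 were higher in mOPCs (log2 1.00 ± 0.09 and 9.16 ± 0.12, SE). The other member near Bcas1, 5.54 kb away, had 0 tags in each mESC library, and the 2 members together had 3, 5 and 7 mOPC tags. The members nearest to Tns3, which encodes a focal adhesion protein of differentiating oligodendrocytes, lay far from it and from each other and differed in use. The pair 54.9 kb away (chr11:8719353-8719424) had 56, 28 and 28 tags in mESCs against 2, 2 and 2 in mOPCs. Another pair 321 kb away (chr11:8147892-8147983) had 0, 1 and 0 against 10, 13 and 19, a ratio of 26.9 in favour of mOPCs (4.57 to 1088). Near Mog, a myelin surface protein gene, the stronger pair (chr17:37028968-37029055) had 29, 14 and 17 against 18, 22 and 29 and was not called (log2 -0.45 ± 0.32, SE).

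Many members came in runs: 114 groups of 3 or more members with less than 12 kb between neighbours held 456 members (24.9%), while 1066 members stood alone. More than 95% of the normalised tags came from mESCs in 58 groups and from mOPCs in 9, and 47 lay between. In 43 groups no member had an mOPC tag and in 6 none had an mESC tag. In 55 groups every member lay beyond 95% on the same side.

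The largest groups showed each of these patterns. The 11 members at chr8:88989094-89004546, within 55.0 kb of the zinc finger gene Sall1, had 120, 48 and 30 summed tags in mESCs and 0 in mOPCs, and a further group of 4 at chr8:89063824-89073383 had 75, 21 and 30 against 0. Sall1 was lower in mOPCs (log2 -4.59). The 9 members at chr16:23097009-23103114 near Eif4a2, a translation initiation factor gene, had 170, 70 and 58 tags in mESCs and 0 in mOPCs, at least 155-fold higher. In the opposite sense, the 10 members at chr15:85599238-85613508 near Wnt7b had 1, 1 and 4 tags in mESCs against 400, 482 and 538 in mOPCs, and 9 of the 10 had 0 mESC tags. The 8 members at chr6:126766648-126786265 near the potassium channel gene Kcna6 had 0 tags in mESCs and 81, 119 and 139 in mOPCs, at least 72.4-fold higher, and Kcna6 was higher in mOPCs (log2 10.28).

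Other groups had tags in both cell types. The 11 members at chr12:86888146-86919280 near Irf2bpl and Cipc, regulators of transcription and of the circadian clock, had 193, 75 and 86 tags in mESCs and 70, 95 and 122 in mOPCs. The 9 at chr1:86487607-86522405 near Ptma had 102, 69 and 46 against 84, 122 and 163. Groups of 7 near Socs3 (chr11:117954188-117976581) and near Rps6ka1 (chr4:133811321-133814265), a kinase gene of growth factor signalling, had 294 and 112 pooled mESC tags against 161 and 75 mOPC tags. A group of 7 near Tex44 (chr1:86434497-86442344) had 79 against 372, whereas Tex44 itself was lower in mOPCs (log2 -7.21). The group of 9 at chrY:90734854-90743170 near Gm21860 had 160 against 52, and since chromosome Y holds near-identical copies of many genes, tags there are less certain. Further groups were near or at 0 in mOPCs. Those of 7 near Csnk1a1 and Il17b (chr18:61621422-61634794) and near AU018091 and Nlrp12 (chr7:3194114-3211653) had 238 and 137 mESC tags against 1 and 0. Closer to the listed genes, 5 of the Sox2 members formed a group at chr3:34751733-34761481 with 54, 30 and 20 mESC tags and 4 of the Klf4 members 1 at chr4:55474581-55480683 with 135, 55 and 52, both with 0 mOPC tags.

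Nearest genes leaned to the cell type in which a member was used. The 831 members with 0 tags in mOPCs had 525 different tested nearest genes, of which 62.9% were called higher in mESCs and 29.7% higher in mOPCs, beside 49.0% and 42.0% of the 14840 protein-coding genes tested. The 389 members with 0 tags in mESCs had 261, of which 25.7% were called higher in mESCs and 65.5% higher in mOPCs. For the 612 members with tags in both cell types the 411 genes were called 44.3% and 45.3%, near the background. The median log2 fold change of the genes was -1.03, 0.99 and -0.02 in these 3 sets and -0.17 over all protein-coding genes tested. Some genes are the nearest of members in more than 1 set, and 1167 genes in all were nearest to a member.

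By distance, the share of genes higher in mESCs was lower farther away, except near members with 0 mESC tags. For members with 0 mOPC tags, 72.7% of the 161 genes under 10 kb away were higher in mESCs, 63.2% of the 288 at 10 to 50 kb and 54.9% of the 122 at 50 kb and over. For members with 0 mESC tags, 63.8% of 58, 70.9% of 110 and 62.6% of 107 genes were higher in mOPCs at these distances. For members with tags in both cell types 47.5, 44.0 and 35.1% of the genes were higher in mESCs, and over all members 54.9, 49.9 and 41.7%, so this order was not particular to members with 0 mOPC tags. These shares carry no test, and many members went against them: of the 254 members called higher in mESCs 152 had a nearest gene called the same way, 63 the opposite way, 23 not called and 16 not tested, and of the 179 called higher in mOPCs 100, 47, 15 and 17. Across the 400 called members with a tested gene the fold changes of member and gene had a Pearson's r of 0.34 and a Spearman's rho of 0.36, a description over points that share all 6 libraries and in part their 347 genes.

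**Figure D5:**
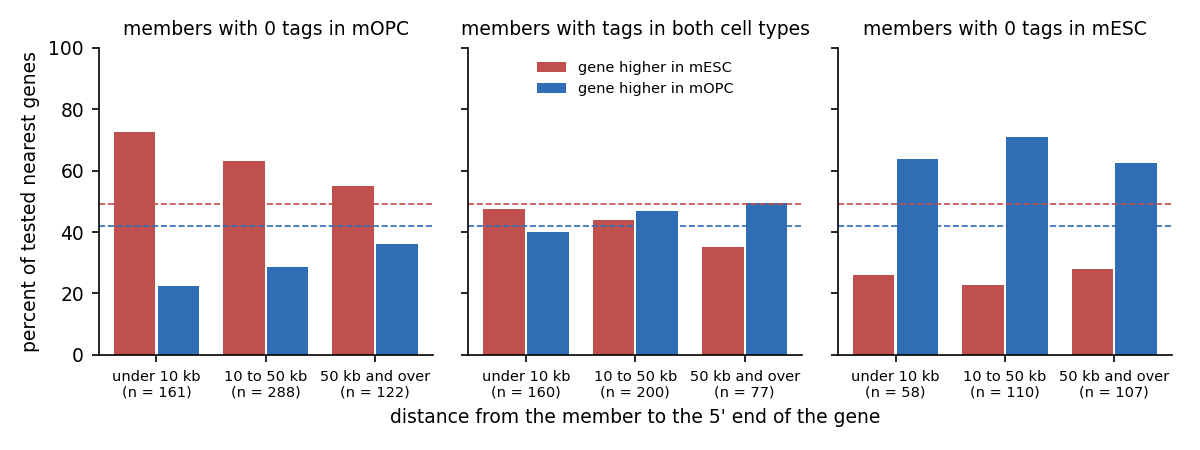
Percent of the tested nearest protein-coding genes called higher in mESCs or in mOPCs (vertical), by distance from the member to the 5′ end of the gene (horizontal, with the number of genes), for members with 0 mOPC tags, with tags in both cell types and with 0 mESC tags. Dashed lines give the share of the 14840 protein-coding genes called in each direction, 49.0% and 42.0%. Genes near members with 0 mOPC tags were more often higher in mESCs, from 72.7% under 10 kb to 54.9% at 50 kb and over, and genes near members with 0 mESC tags more often higher in mOPCs at every distance.

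The balance of the strands changed between the cell types in a minority of members. Of 694 members with 10 or more tags on each strand 90 were called in edgeR's test of the strand by cell type interaction (13.0%), 41 with the plus strand taking more and 49 with it taking less of the tags in mOPCs, beside 39.8% of all 13616 divergent pairs tested. A member with tags in 1 cell type cannot show such a change. Of the 100 members with 20 or more tags in each cell type 53 were called (53.0%), next to 741 of 1204 pairs at 5′ ends with the same limits on tags and strand ratio (61.5%). Across all members the plus strand held 52.5 to 53.5% of the tags in the mESC libraries and 48.8 to 49.8% in the mOPC libraries.

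The 5 members with the largest change of balance used opposite strands in the lines. Near the zinc finger gene Zfp945 (chr17:22875623-22875751) the plus strand had 45 tags and the minus strand 1 in mESCs, against 0 and 94 in mOPCs. Near the ubiquitin ligase gene Rffl (chr11:82875747-82875891) these were 65 and 1 against 0 and 48. Near Spry2, an inhibitor of receptor tyrosine kinase signalling (chr14:105921133-105921154), they were 33 and 0 against 0 and 18. The pair near the polarity gene Pard6b (chr2:168058844-168058910) had 24 plus and 0 minus tags in mESCs against 0 and 24 in mOPCs, and the pair near the acid ceramidase gene Asah1 (chr8:41335191-41335284) 0 and 8 against 20 and 2. All 5 passed the test (largest edgeR adjusted p = 0.00019). All 5 met the limit on the strand ratio in the pooled tags and in neither line. A pair beyond the limit in both lines can meet it in pooled tags only if the lines use opposite strands. The opposite use of these 5 thus follows from the rule, and the test gives no separate support for it.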

How the data were processed

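Nuclear CAGE libraries, 3 from R08 mESCs and 3 from oli-neu mOPCs, were analysed. The deposited values are raw counts, made by the authors for each library: the number of tags that begin at each mm10 position, by strand, without normalization. The paper's methods name bowtie for the alignment, whereas the submitters' processing notes list CASAVA 1.8 and BWA 0.5.9, and which made these files is not given in the sources used here. Strand is recorded with each tag. Column 5 of the files was pooled over 6 libraries, and clusters, pairs and members were found as the report states, taking the nearest clusters of opposite strand that chose each other. Genes and 5′ ends were those of GENCODE vM21. A member's tags are all tags between its cluster ends.

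Libraries held 16657021 to 40928704 tags, so that a member at 0 tags in a cell type has a limit of 3 tags over the pooled libraries. Clusters, genes (all tags of the body on its strand) and strand balance (library as a block, 10 or more tags on each strand) were tested with edgeR 4.0.16 (R 4.3.3, robust quasi-likelihood fit, TMM factors on library totals, filterByExpr; Benjamini-Hochberg adjusted p under 0.05 over the whole table), with DESeq2 1.42.0 as an alternative. Normalised levels divide by library totals times TMM factors. Python 3.11.15 served for positions (pandas 2.3.3, numpy 2.4.6), exact tests (scipy 1.17.1) and figures (matplotlib 3.10.9). Scripts were tested on simulated data.

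Members, gene lists and tests were chosen with earlier results of these data known. Members were named by rule: the 8 largest changes each way among called members with 50 or more tags and groups that did not overlap, the 5 with most tags, the 5 smallest changes at 200 or more tags, the 8 with most tags near each gene list, the 5 largest changes of balance, and groups of 3 or more within 12 kb, of which those near listed genes and the largest are given. Summed tags per listed gene and the printed sequences were added after the values were seen. A genome sequence was not used here, so sequence features could be read in RefSeq promoter windows alone. The sequence of 1 member is not reported here. Same-numbered libraries did not deviate together (correlations of their deviations 0.0459, 0.0200 and 0.0123), so numbers do not pair the lines.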

Additional observations from a re-analysis of the deposited data

Results flagged for a closer look

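The strand by cell type interaction was past the threshold for 90 of 694 tested members (13.0%), beside 39.8% of all 13616 divergent pairs tested. With 20 or more tags in each cell type the share was 53.0% of members and 61.5% of like pairs at 5′ ends. Such a call is a difference between the cell types in which strand was used, and it was no more frequent in members than elsewhere. The 5 largest on the log2 scale (plus over minus strand, mOPC over mESC) were -12.82 ± 1.21 near Zfp945, -12.39 ± 1.26 near Rffl, -12.16 ± 1.83 near Spry2, -12.11 ± 1.83 near Pard6b and 7.88 ± 1.93 near Asah1 (SE). A strand at 0 tags in a cell type makes these fitted values depend on the prior count, so their sizes are no bounds. All 5 met the strand ratio limit in neither line, so their opposite strands follow from the limit on pooled tags. With 3 libraries in each cell type, single libraries were not tested as outliers.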

How the results depend on the processing

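The number of members followed its limits: 4403 with positions of 3 or more tags, 666 with 10 or more, 1121 with a strand ratio under 2, 3108 with no limit on it and 1120 after thinning to the smallest library, while the other planned settings gave 1444 to 2107. Leaving out libraries gave 1144 to 1645, the lowest without mESC replicate 1, the deepest mESC library. The 433 called members became 1596 with no filter on low counts (1048 higher in mESCs and 548 in mOPCs), and 380 to 465 under the other settings that keep all libraries. Leaving out libraries gave 427 to 620 called, 241 to 412 higher in mESCs and 169 to 243 higher in mOPCs, with 412 without mOPC replicate 1. With the replicate block 429 members were called (253 and 176). The ratio of the member share, mESC over mOPC, was 1.41 for members found after thinning, 1.46 without the 5 members with most tags and 1.31 to 1.39 with a library left out. The 90 calls of strand balance became 91 without the filter and 58 to 78 with a library left out, 58 without mESC replicate 1. The percent of nearest genes called with the member ranged from 62.0 to 65.7 (mESC) and from 58.6 to 66.7 (mOPC), inside the counting intervals of the reported values, and from 62.7 to 63.7 and from 58.6 to 60.9 with a library left out. Of 605 values of 51 named members 594 kept their direction and side of the threshold; the member near Nsd1 turned to a log2 fold change of 0.041 with library totals alone and lost its call without mESC replicate 2 and without each mOPC replicate (-0.28 to -0.21), the member near Epcam lost its call with no filter (0.43), and those near Arid1b, Zfp945 and Scd2 gained one with library totals alone. Alternatives added after seeing the data were the strand ratio within a cell type (1773 members, 429 called), shares with a library left out, and DESeq2 and the replicate block for nearest genes. The cause of these changes was not tested beyond the fewer tags or libraries that each setting leaves. Members at 10 to 20 tags cannot show a change below several-fold at this depth.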
